A study of Mus musculus with 90 samples.

Results

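Distal Menin-only peaks are sites where Menin was called in mouse embryonic stem (ES) cells with neither the histone mark nor the methyltransferase it is usually found with. They were chosen by overlap and distance. A Menin peak counted when it lay on an autosome, shared no base with a listed peak of H3K4me3 or Mll2, and had its edge more than 10 kb from every merged H3K4me3 region, meaning a union of overlapping peaks with both H3K4me3 libraries in it. The rule took 8111 of the 42973 autosomal Menin peaks, or 18.9% (exact 95% interval 18.5 to 19.2%, counting error only), out of 43544 Menin peaks on all chromosomes. They made up 46.2% of the 17540 autosomal Menin peaks without H3K4me3 or Mll2, and the other 9429 lay within 10 kb of a merged H3K4me3 region.

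The study examined how Mll2 contributes to H3K4me3 in ES cells of the line V6.5, which were grown in serum and leukaemia inhibitory factor. From 90 samples in the series, the peak lists of 5 wild-type libraries made by chromatin immunoprecipitation and sequencing (ChIP-seq) were used. Menin was precipitated once, with the Bethyl antibody A300-105A, and Mll2 once each with the homemade sera 9172 and 9175, from cells whose labels list no hairpin. H3K4me3 was precipitated with homemade antibody 28 in replicates 1 and 3 of cells that carried a lentiviral hairpin against GFP (shGFP) as a control, so the mark was not measured in the cells used for Menin. After removal of duplicate tags the Menin library kept 11550409 tags and the other libraries between 12277583 and 21936546. No peak listed means not called at that depth. With a single Menin library there is no replicate of any value below, peaks of a library are not replicates, and no test between conditions was made. Positions are in build mm9, and genes and sequences at these sites were not analysed here.

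Menin, the product of the tumour suppressor gene Men1, is a scaffold protein that binds the amino-terminal part of Mll1 and Mll2 and is a subunit of their COMPASS-like complexes. These complexes methylate lysine 4 of histone H3, and the trimethylated form, H3K4me3, marks the start sites of active and poised genes, most of them in CpG-rich promoters. Mll2 is the member of the family known in ES cells for H3K4me3 at poised, bivalent promoters. Menin also binds transcription factors such as JunD. Mll1 itself was not measured in the libraries used.

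The distal Menin-only peaks were weak and narrow. A typical one held 16 tags (quartiles 13 and 22, range 11 to 530) over 506 bp (quartiles 427 and 646, range 239 to 3147). Their strength, counted as Menin tags per kb of peak, had a median of 31.8, with quartiles of 29.5 and 34.9 and a range from 23.6 to 207. A strength of 40 tags per kb was reached by 7.50% of them, against 46.2% of all autosomal Menin peaks. Of the distal peaks 94.6% were narrower than 1000 bp, against 60.4% of all autosomal Menin peaks, and 25 of them (0.308%) were wider than 2000 bp, against 11.2%. The summit lay at the middle of a typical peak, at a median relative position of 0.5 with quartiles of 0.379 and 0.622.

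Autosomal Menin peaks that overlapped both H3K4me3 and Mll2 stood far from them, with a median of 57.7 tags per kb over 1413 bp. Peaks with H3K4me3 alone had 35.5 tags per kb and 668 bp. Peaks with Mll2 alone that also lay more than 10 kb from a merged H3K4me3 region, 1923 in number, had 36.9 tags per kb and 707 bp. The nearest class was that of the Menin-only peaks within 10 kb of H3K4me3, at 32.7 tags per kb and 565 bp, whose quartiles of 30.2 and 36.3 tags per kb overlap those of the distal set. Distance from H3K4me3 therefore went with a small step in strength, and a called partner with a larger one. These classes differ in what they overlap, and a wide peak is more easily overlapped. The classes with wider peaks also had more tags per kb, so both the widths and the strengths are descriptions.

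**Figure D1:**
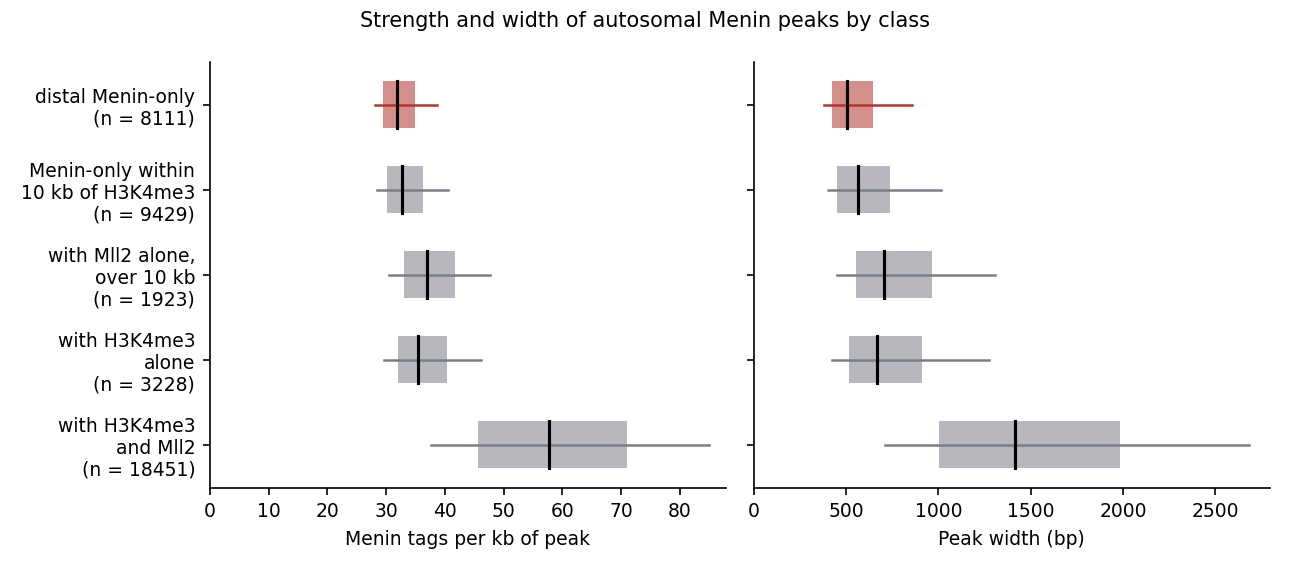
Menin tags per kb (left) and peak width in bp (right) for 5 classes of autosomal Menin peaks, with the number of peaks in brackets; black lines are medians, boxes run from quartile to quartile and thin lines from the lowest to the highest decile. The distal Menin-only peaks, in red, had the lowest medians at 31.8 tags per kb and 506 bp, and peaks with H3K4me3 and Mll2 the highest at 57.7 and 1413 bp.

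Few had a high score within the Menin list. The deposited MACS score, minus 10 times the log10 of a peak's p, had a median of 62.74 where the list starts at 50, and 43.2% of the distal peaks scored under 60, against 20.2% of all autosomal Menin peaks. A score of at least 100 was reached by 1053 of them (13.0%, exact interval 12.3 to 13.7%), against 51.1% of all autosomal Menin peaks. The median deposited fold enrichment, a ratio to the background that MACS estimated, was 8.72 (quartiles 7.54 and 9.93). It was close to 8.44 for the Menin-only peaks within 10 kb of H3K4me3 and below 11.33 at peaks with H3K4me3 and Mll2. A fold of at least 10 was reached by 1942 distal peaks (23.9%), against 41.2% of all autosomal Menin peaks. Of the 4297 autosomal Menin peaks in the strongest decile by tags per kb, each with at least 72.7, 10 were distal Menin-only peaks, or 0.233%. The fold is coarse for such peaks: the 8111 distal peaks took 694 different values, and 697 of them shared the value 9.19. The same peaks had a deposited false discovery rate of at most 0.43%.

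The peaks next to the 10 kb limit are given here as a description. The first peaks inside it lay 10004 bp from a merged H3K4me3 region on chromosome 2 from 173089343 to 173089925 (30.9 tags per kb), 10004 bp away on chromosome 6 from 23210194 to 23210996 (34.9 tags per kb), and 10006 bp away on chromosome 12 from 114405944 to 114406514 (26.3 tags per kb). The last ones outside it, each 9999 bp away, lay on chromosome 4 from 132817709 to 132818377 (31.4 tags per kb), chromosome 8 from 124847433 to 124849249 (49.5 tags per kb) and chromosome 11 from 115037130 to 115037689 (32.1 tags per kb). The peak on chromosome 8, with 90 tags over 1817 bp, was the largest of these 6, and the 3 inside the limit held 15 to 28 tags over 571 to 803 bp. The number of peaks depends on the limit, with 5122 left at more than 20 kb and 1898 at more than 50 kb.

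The sites richest in tags differed widely in fold. The densest was a peak on chromosome 11 from 3049362 to 3051919, which held 530 tags over 2558 bp, or 207 tags per kb, at a fold of only 3.45. Its tags per kb divided by its fold came to 60.1, against a median of 3.66 over the distal peaks. This quotient is not a measure of background alone, since members of the same fold, 9.19, included peaks with 24.4 and with 36.9 tags per kb. Others with a fold under the median were chromosome 8 from 19981786 to 19983445 (167 tags, 101 tags per kb, fold 4.89), chromosome 17 from 13744650 to 13746127 (143 tags, 96.8 tags per kb, fold 6.57) and chromosome 7 from 12595496 to 12596486 (94 tags, 94.9 tags per kb, fold 7.47). Next among these were chromosome 5 from 33076524 to 33077121 (81.9 tags per kb, fold 5.74) and chromosome 17 from 13498732 to 13499146 (79.5 tags per kb, fold 6.26). The last of the 10 densest lay on chromosome 10, from 57694365 to 57695702 (75.5 tags per kb, fold 9.05) and from 57686556 to 57688454 (74.8 tags per kb, fold 6.93). Of the 10 distal peaks with the most tags per kb, 7 had a fold under the median of 8.72, and 8 had no Mll2 peak within 10 kb. Over all distal peaks 38.4% had an Mll2 peak within 10 kb, so most of the whole set had none either. The list was not filtered for artefact-prone sites, and the part of such sites in these values was not tested.

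Other sites combined many tags with a high fold. Second by tags per kb was a peak on chromosome 8 from 14038279 to 14038962, with 72 tags, 105 tags per kb, a fold of 33.53 and a score of 490.44. No H3K4me3 peak lay within 44685 bp of it and no Mll2 peak within 13848 bp, and its nearest fellow member was 26144 bp away. The highest fold of the set, 39.74, belonged to a peak on chromosome 4 from 139603665 to 139604449 with 63 tags and 80.3 tags per kb. That site had an H3K4me3 peak of replicate 1 at 3421 bp and an Mll2 peak of serum 9175 at 9472 bp, and it stood in a run of 4 members. These were the 2 peaks among the 10 densest with a fold over 30.

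Of the 5 members with the highest fold, 3 lay within 1 kb of a called Mll2 or H3K4me3 peak without touching it. Over all members 9.20% lay within 1 kb of an Mll2 peak and 3.49% within 1 kb of an H3K4me3 peak of either library. On chromosome 7 from 56684112 to 56684890 a peak of fold 38.0 and 65.5 tags per kb lay 589 bp from a serum 9172 peak and belonged to a run of 8 members. On chromosome 4 from 154823748 to 154824535 a peak of fold 33.3 had an H3K4me3 peak of replicate 1 at 878 bp and a serum 9175 peak at 1134 bp. The highest score of the set, 800.47, was that of a peak on chromosome 7 from 51696938 to 51699515, with 148 tags over 2578 bp and a fold of 24.84, which lay 603 bp from a serum 9175 peak, 616 bp from a serum 9172 peak and 11488 bp from a merged H3K4me3 region.

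The widest members were on chromosome 10 from 60261487 to 60264633 (3147 bp, 127 tags, fold 12.92), chromosome 4 from 132580046 to 132582869 (2824 bp, 122 tags, fold 7.66) and chromosome 17 from 84353694 to 84356277 (2584 bp, 136 tags, fold 12.54). The first of these was 5 bp from the next member and belonged to a run of 9. The second was 877 bp from an Mll2 peak, and the third had no Mll2 peak within 46682 bp and no H3K4me3 peak within 78822 bp. The widest members thus included both sites beside Mll2 and sites far from it.

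Distal Menin-only peaks lay in groups. Another member was found within 20 kb of 4704 of them, or 58.0% (exact interval 56.9 to 59.1%), and the median gap to the nearest other member was 11463 bp (quartiles 2184 and 61417 bp). For comparison, a copy of the list was shifted by 1 random distance per chromosome along the space open to such peaks. This space is the sequence more than 10 kb from every merged H3K4me3 region. On average over 1000 shifts, 9.09% of the members had a peak of the shifted copy within 20 kb (range 5.91 to 18.2%). The observed share was 6.38 times that mean. A shifted copy keeps the gaps within the list, so its peaks stay grouped and reach less sequence than scattered peaks would. The shifted shares are therefore lower, and the ratios higher, than they would be against scattered peaks. The ratio to the shifted mean was highest at the shortest gaps, while the difference grew with the gap. Within 1 kb 16.1% had another member, against 1.36% after shifts, a ratio of 11.8. Within 5 kb the shares were 37.1% and 3.88%, and within 100 kb they were 82.9% and 22.2%, a ratio of 3.74.

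Shifts along a whole chromosome move peaks between its peak-rich and peak-poor parts. When shifts were held to between 50 kb and 1 Mb, so that peaks stayed in their neighbourhood, the mean share after shifting was 24.6% (range 21.3 to 29.1%). The observed share still lay above the highest of these shifts. Such shifts do not keep a peak's distance from H3K4me3, along which the density of these peaks fell. The part of that distance in the grouping was not tested. A broad site can be listed as several peaks, and when members with gaps under 1 kb were first joined, 51.5% of the 7407 joined peaks had another within 20 kb, against 9.06% after shifts. Shorter lists leave wider gaps by construction. Among the 1942 members with a fold of at least 10, 21.6% had another such member within 20 kb, and among the 1053 with a score of at least 100 it was 31.5%.

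**Figure D2:**
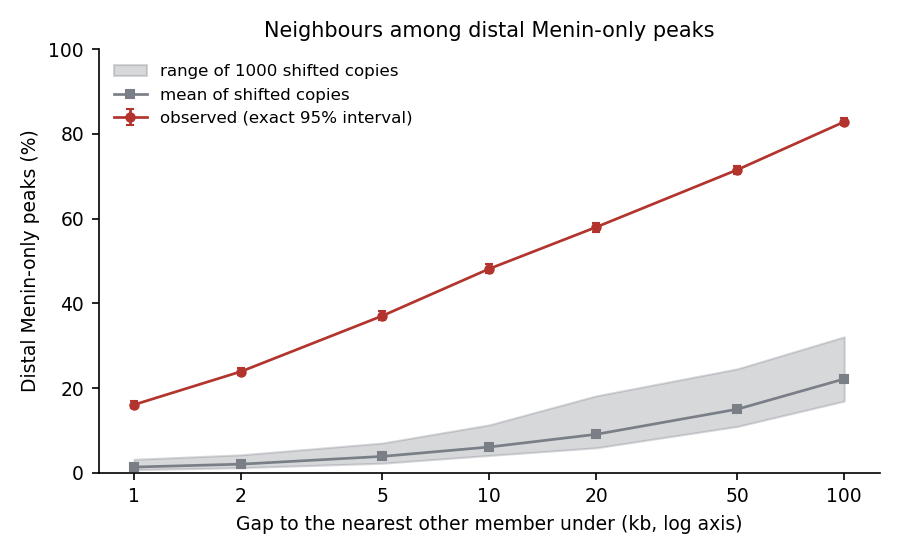
Percent of the 8111 distal Menin-only peaks with another member closer than the gap on the x axis (kb, log axis), in red with exact 95% intervals, and the mean (grey squares) and range (grey band) of 1000 shifted copies. At 20 kb the observed share was 58.0% and the shifted mean 9.09%, and at each of the 7 gaps the observed share lay above the band.

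Closeness to Menin peaks of any class was near the background. Any other Menin peak lay within 20 kb of 78.8% of the distal peaks (6390 peaks), a share below the 83.2% among all autosomal Menin peaks. A Menin peak outside the set was within 20 kb of 61.0% of them.

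Chained by gaps under 20 kb, the peaks formed 1546 runs of 2 or more members, and 3407 members stood alone. Runs of 2 were commonest, with 848, followed by 340 of 3 and 160 of 4. Runs of 5 or more numbered 198, lay on all 19 autosomes, held 1348 members (16.6%) and spanned a median of 32853.5 bp. Runs of 10 or more numbered 24, with 269 members on 10 autosomes. Most runs thus held few members.

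The run with the most members, on chromosome 8 from 121983619 to 122055241, counted 16 of them over 71623 bp with 341 tags in all. They ranged from 28.9 to 46.1 tags per kb and from 50.84 to 104.81 in score, and 1 of the 16 reached a score of 100. Inside the same span lay 3 Menin peaks outside the set, 2 Mll2 peaks of serum 9172 and 3 of serum 9175, and no H3K4me3 peak of either library. The nearest merged H3K4me3 region was 11660 bp from the closest member. On chromosome 12 from 109436135 to 109499556, 14 members with 27.1 to 35.3 tags per kb covered 63422 bp, and no other peak of any of the 5 lists lay in that span. Likewise 13 members with 28.4 to 43.0 tags per kb covered 80280 bp on chromosome 1 from 183962460 to 184042739 with no other listed peak between them. A run of the same number on chromosome 12, from 56533361 to 56573869, was tighter at 40509 bp, and held 3 further Menin peaks, 1 peak of each Mll2 serum and 1 H3K4me3 peak of replicate 1. Runs with and without Mll2 inside were therefore both among the fullest.

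**Figure D3:**
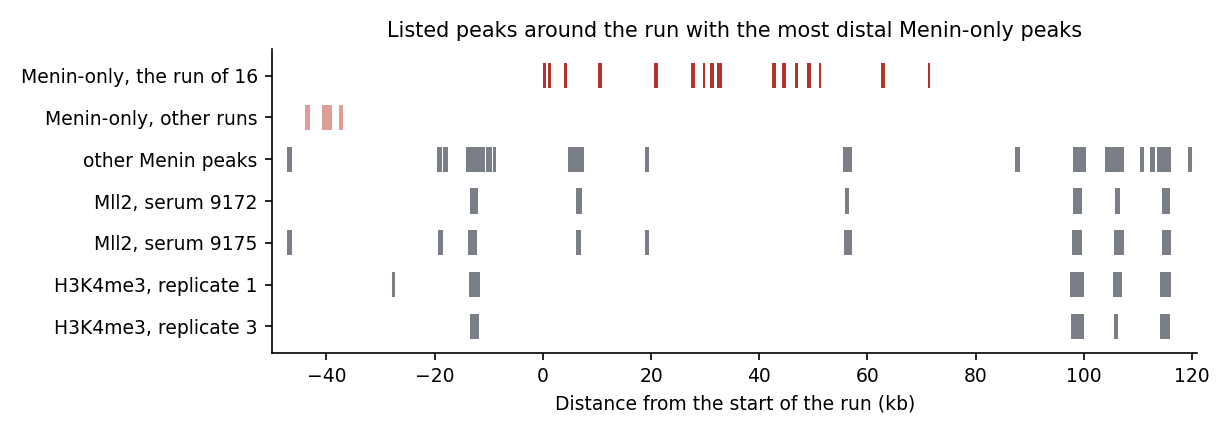
Peaks of the 5 libraries around the run of 16 distal Menin-only peaks, by distance in kb from the start of the run; each bar is a listed peak drawn to its width, with the run in red, members of other runs in light red and all other peaks in grey. The run fills the first 71.6 kb, where 3 other Menin peaks and Mll2 peaks of both sera are listed and no H3K4me3 peak is.

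The peaks were spread over all autosomes, unevenly. The space open to them was 2077.87 Mb, and they occurred at 3.90 per Mb of it. Density was highest on chromosome 11, at 8.15 per Mb (758 peaks, exact Poisson interval 7.58 to 8.75), and on chromosome 8, at 7.77 per Mb (853 peaks, 7.25 to 8.31). Chromosomes 17 (5.88 per Mb) and 4 (5.65 per Mb, 729 peaks) followed, and the sparsest were chromosomes 3, at 1.96 per Mb, and 14, at 1.85 per Mb (203 peaks, 1.60 to 2.12). From the densest to the sparsest autosome the density fell by a ratio of 4.41. Chromosomes 11 and 8 do not differ beyond their counting intervals, and neither do 3 and 14. Per Mb of chromosome, from its first to its last listed peak, chromosome 8 came first at 6.64 and chromosome 11 next at 6.38.

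**Figure D4:**
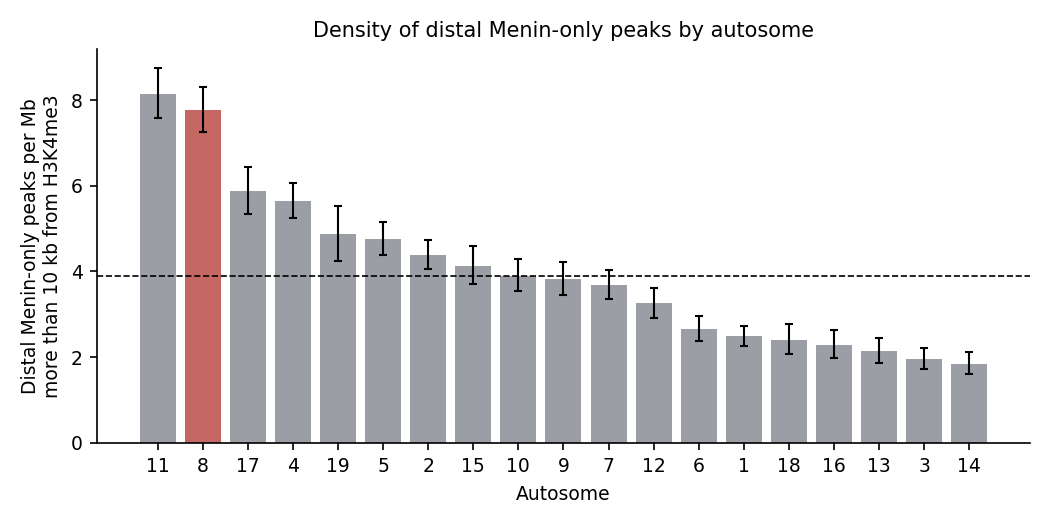
Distal Menin-only peaks per Mb of sequence more than 10 kb from merged H3K4me3 regions, for each of the 19 autosomes in order of density, with exact 95% Poisson intervals and the overall 3.90 per Mb as a dashed line. Chromosomes 11 (8.15) and 8 (7.77, in red) stand above the others, and chromosome 14 (1.85) is the lowest.

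The order went largely with that of H3K4me3 itself. Over the 19 autosomes the density of the peaks and the number of merged H3K4me3 regions per Mb had a Pearson's r of 0.813 and a Spearman's rho of 0.846, as a description over chromosomes that share the libraries. Without chromosome 8 the values were 0.900 and 0.876 over 18 autosomes. Chromosome 11 had the most H3K4me3 regions, 12.4 per Mb, and chromosome 8 had 8.26 per Mb, near chromosomes 2 and 4 with 8.36 and 8.44 but with more distal Menin-only peaks than their 4.38 and 5.65 per Mb. Distal Menin-only peaks were also a larger part of the Menin peaks of chromosome 8, at 25.0% (23.5 to 26.5%), than of any other autosome, where they made up from 14.4% on chromosome 7 to 22.1% on chromosome 12.

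Chromosome 8 had higher median Menin and Mll2 strength than the other autosomes at peaks listed in all 5 libraries. Its median Menin strength there was 74.8 tags per kb, against 57.5 to 62.5 on the other autosomes, a ratio of 1.22 to their median. The same ratio was 1.15 and 1.17 for the Mll2 sera 9172 and 9175, with no other autosome above 1.04 and 1.05. For H3K4me3 it was 1.11 and 1.12 in replicates 1 and 3, and the highest other autosome was at 1.12 in each. Its distal Menin-only peaks had a median of 33.8 tags per kb and 596 bp, against 31.3 to 32.0 tags per kb and 474 to 513 bp elsewhere, but a lower median fold, 7.62, and their tags per kb divided by fold was 4.50 against 3.51 to 3.74. The part of this tag level in the number of distal peaks on chromosome 8 was not tested. Chromosome 8 held 10.5% of the distal peaks, and without it 7258 remained, at 3.69 per Mb and with 56.7% having another member within 20 kb. It was also home to 35 of the 198 runs of 5 or more and 6 of the 24 runs of 10 or more.

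Menin peaks without H3K4me3 thinned out steadily with distance from it, with no break at 10 kb. In the first kb beyond a merged H3K4me3 region there were 62.3 Menin-only peaks per Mb, and between 5 and 10 kb there were 22.5. Inside the distal set the density went on falling, from 14.1 per Mb between 10 and 20 kb (2989 peaks) to 7.99 between 20 and 50 kb (3224 peaks), 3.52 between 50 and 100 kb (1272 peaks) and 1.26 between 100 and 200 kb (468 peaks). Between 200 and 500 kb it was 0.308 per Mb (136 peaks), and beyond 500 kb 22 peaks gave 0.0763 per Mb (0.0478 to 0.116). The median distance of a distal peak from a merged H3K4me3 region was thus only 26223 bp (quartiles 15964 and 47263.5 bp), with the farthest at 2164290 bp.

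Menin peaks with Mll2 alone thinned out over the same distances, from 10.9 per Mb in the first kb to 2.96 between 10 and 20 kb and 0.0312 beyond 500 kb. At each distance the Menin-only peaks were the more numerous. Strength of the Menin-only peaks changed little by comparison, from 33.4 tags per kb in the first kb to 32.0 between 10 and 20 kb and 31.1 between 200 and 500 kb, with 32.9 in the 22 peaks beyond 500 kb. Their median width was 586, 521, 458.5 and 406 bp at the same distances.

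**Figure D5:**
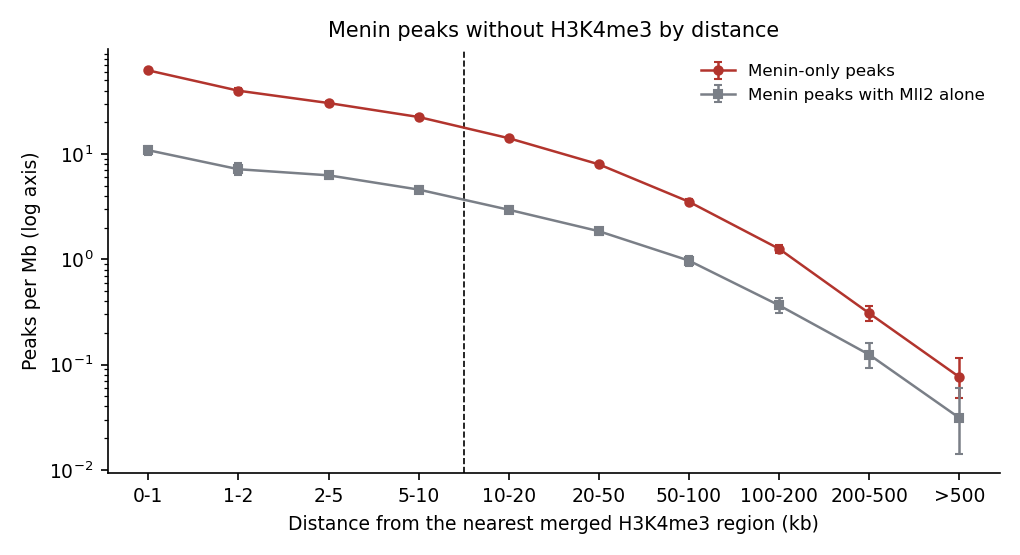
Autosomal Menin peaks per Mb (log axis) by distance in kb from the nearest merged H3K4me3 region, for Menin-only peaks (red) and peaks with Mll2 alone (grey), with exact 95% Poisson intervals; the dashed line marks the 10 kb limit of the distal set. Menin-only peaks fell from 62.3 per Mb in the first kb to 14.1 just beyond the limit and 0.0763 beyond 500 kb.

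Density fell likewise with the length of the intervals between H3K4me3 regions. Of the 12235 autosomal intervals of more than 20 kb between neighbouring merged H3K4me3 regions, 3751 (30.7%) held a distal Menin-only peak. In intervals of 20 to 50 kb the density was 24.0 per Mb of open space, in those of 50 to 100 kb it was 15.2, and in those of 200 to 500 kb 3.24. In intervals over 1000 kb it was 0.278 per Mb. The share of intervals with a member did not follow that order. It was lowest in the shortest intervals, at 19.7% for 20 to 50 kb, and reached 36.6% for 50 to 100 kb, 39.3% for 100 to 200 kb and 37.2% for 200 to 500 kb. The rule takes 10 kb off each end, so short intervals offer little room by construction. The 4121 intervals of 20 to 50 kb kept 54.1 Mb of open space, and the 3111 of 50 to 100 kb kept 160 Mb. For 500 to 1000 kb it was 28.1%, and above that 24.6%. The fullest interval lay on chromosome 8 from 127612749 to 128091879, where 19 members shared 479131 bp. Next came an interval on chromosome 4 from 136194116 to 136390271, with 17 members in 196156 bp.

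Most distal peaks had no Mll2 peak within 10 kb. The median distance to an Mll2 peak of either serum was 13194 bp, with 9.20% of the distal peaks (746) within 1 kb and 38.4% (3111) within 10 kb of one. Over all autosomal Menin peaks, many of which overlap Mll2, these shares were 61.9% and 86.0%. Over the Menin-only peaks within 10 kb of H3K4me3, which like the distal ones overlap no Mll2 peak, they were 24.0% and 96.4%. Autosomal Menin peaks with H3K4me3 mostly overlapped Mll2 as well (18451, against 3228 with H3K4me3 alone). The 10 kb limit on H3K4me3 thus also sets these 2 classes apart in nearby Mll2 by construction. Within 10 kb the sera gave 27.8% for serum 9172 and 30.3% for serum 9175. A Menin peak with Mll2 alone, itself more than 10 kb from a merged H3K4me3 region, lay within 10 kb of 16.9% of them.

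H3K4me3 peaks of a single library could lie closer than 10 kb, since the limit counted only regions with both. Such a peak lay within 10 kb of 1487 members (18.3%) and within 1 kb of 283 (3.49%). Replicate 1, the library with more tags, was near 1370 of them and replicate 3 near 158. When distance was counted to any H3K4me3 peak of either library, 6623 peaks met the rule.

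Stronger members kept closer company. Among the 3508 with a score under 60, 52.8% had another member within 20 kb and 32.5% an Mll2 peak within 10 kb. Among the 3550 with scores from 60 to under 100 these were 59.3% and 39.6%, and among the 1053 with at least 100 they were 70.9% (exact interval 68.1 to 73.7%) and 53.8%. An Mll2 peak within 1 kb was found for 6.76%, 9.89% and 15.0% in the same order. The median distance to a merged H3K4me3 region moved less, from 27485 to 25775 and 23842 bp, and the share on chromosome 8 was 9.81%, 10.2% and 14.1%. The median width of these groups was 433, 551 and 879 bp, so the stronger groups also took up more sequence, and the part of width in these shares was not tested.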

How the data were processed

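The authors called peaks of each library alone against 1 input library with MACS 1.4.2, per the file headers, at a p cutoff of 1e-05 with 1 tag kept per position. The submitters' processing notes name CASAVA 1.8 and Bowtie 0.12.9 and the build mm9, with no parameters. The deposited count of tags per peak is a whole number and is not normalized. The deposited fold is a ratio to the background that MACS estimated. The deposited score is minus 10 times the log10 of the MACS p, with a minimum of 50. The deposited false discovery rate is in percent. Score and fold, both taken from the authors, served only to describe peaks within the Menin list.

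From these, overlaps of at least 1 bp, distances between peak edges, tags per kb of peak and runs with gaps under 20 kb were computed with Python 3.11.15, NumPy 2.4.6, pandas 2.3.3 and SciPy 1.17.1. Shares have exact Clopper-Pearson 95% intervals and densities exact Poisson ones, both covering counting error only. Open space ran from the first to the last listed peak of a chromosome, without merged H3K4me3 regions and 10 kb on each side, and 1000 circular shifts along it were drawn. The code was tested on simulated lists. Named sites were the 10 members with the most tags per kb, the 5 with the highest fold, the 5 widest, the runs with the most members, 3 peaks on each side of the limit, and the fullest intervals, which were chosen after their values were seen. The peaks, lists and classes were chosen with earlier results of these data known.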

Additional observations from a re-analysis of the deposited data

How the results depend on the processing

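Of 68 alternative values over 7 results, 33 stayed within a margin of the value given in the report, and 35 did not. The margin was the counting error, or 1.5 times for numbers of peaks. For the shifted share it was the standard deviation over shifts, 1.35 percentage points. The setting without chromosome 8 and the joined peaks after shifts were chosen after seeing the data. The number of distal Menin-only peaks was 8111 and became 5122 at more than 20 kb, 1898 at more than 50 kb, 1942 with a fold of at least 10 and 1053 at a score of 100 or more. It ran from 6784 to 8593 without H3K4me3 replicate 3 or 1. The median of 31.8 tags per kb was 31.5 at more than 50 kb, 31.6 with no partner peak within 1 kb, 37.7 at a score of 100 or more, 32.8 with a fold of at least 10 and 31.6 without chromosome 8. The median width of 506 bp was 514 at more than 5 kb, 498 at more than 20 kb, 483 at more than 50 kb, 500 with distance to any H3K4me3 peak, 879 at a score of 100 or more, 526.5 with a fold of at least 10, 498 without chromosome 8, and 501 to 513 without either H3K4me3 replicate. The median fold of 8.72 was 8.94 at more than 50 kb, 10.05 at a score of 100 or more, 10.93 with a fold of at least 10 and 8.94 without chromosome 8. The share of 58.0% with another member within 20 kb was 62.8% at more than 5 kb, 53.5% at more than 20 kb, 43.2% at more than 50 kb, 53.4% with distance to any H3K4me3 peak, 54.2% with no partner peak within 1 kb, 31.5% at a score of 100 or more, 21.6% with a fold of at least 10, 56.7% without chromosome 8, 48.2% and 71.6% with gaps under 10 and 50 kb, 51.5% with close peaks joined, and 54.0 to 58.7% without either H3K4me3 replicate. The shifted mean of 9.09% became 24.6% with shifts of 50 kb to 1 Mb. The ratio of 4.41 between the densest and the sparsest autosome was 3.99 per Mb of chromosome, where chromosome 8 was the densest. Without chromosome 8 it could not change, since it was taken between chromosomes 11 and 14. Higher limits, scores or folds and closer gaps leave fewer peaks or pairs by construction, and the cause of the other changes was not tested. No paired analysis was possible because Menin had 1 library and no groups were compared. Sequence features were not run, since no genome of build mm9 was used here. The effect of depth on the weakest peaks was not tested.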

Other observations

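Chromosome X, which the autosomal rule leaves out, had few peaks of this kind. Of its 571 Menin peaks, 29 overlapped neither H3K4me3 nor Mll2 and lay more than 10 kb from a merged H3K4me3 region, or 5.08% (exact 95% interval 3.43 to 7.21%), against 14.4 to 25.0% on the autosomes. Over 151.66 Mb of open space that gives 0.191 per Mb (exact Poisson interval 0.128 to 0.275), below the 1.85 per Mb of chromosome 14, the sparsest autosome. Their median was 30.1 tags per kb, and 13.8% of them had another within 20 kb (3.89 to 31.7%). At peaks listed in all 5 libraries the median Menin strength on X was 39.1 tags per kb, against 57.5 to 74.8 on the autosomes, and the part of this lower tag level in the small number of peaks on X was not tested.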
